A study of Mus musculus with 7 samples.

Results

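The cytosolic ribosomal protein genes encode the protein part of the ribosome: the Rps genes that of the small subunit and the Rpl genes that of the large one. Members were the genes whose symbol begins with Rps or Rpl followed by a number, p or a, measured by a probe set that carries no other gene's name. The S6 kinases, Rpap genes and names of processed pseudogenes were left out, and a gene with several probe sets was represented by the one of highest mean signal. This gave 69 genes of 22180 in all, 27 Rps and 42 Rpl genes, from 110 probe sets. Of 77 canonical ribosomal protein names 58 were measured, 23 of 31 in the small subunit and 35 of 46 in the large one. The other 11 members were 7 paralogs (Rpl3l, Rpl7l1, Rpl10l, Rpl22l1, Rpl39l, Rps4l and Rps27l), Rpl6l (annotated as a pseudogene), Rpl32l, the retrogene Rps23rg1 and Rps19bp1. Rps19bp1 is named for binding Rps19 and is not a ribosomal protein. Of the 19 canonical names without a member, 12 stood only on probe sets shared with another gene name and 7 were not listed with a probe set of this kind.

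RNA of the gastric corpus, the acid-secreting part of the mouse stomach, was measured on 1 single-channel Affymetrix array per sample. All 5 groups, the control included, were Atp4b-DTR mice of 8 to 12 weeks, which carry a receptor for diphtheria toxin under the parietal cell gene Atp4b. The control group (1 array) received saline, and the other groups received 225 ng of toxin per mouse, injected into the abdomen on each of 3 days, and were sampled 24 h (1 array), 36 h (1 array), 48 h (2 arrays) or 72 h (2 arrays) after the last dose. Parietal cells secrete acid, and toxin kills cells that carry the receptor. Samples of the 48 h and 72 h pairs are described as independent, and the labels do not state which animals gave which sample or whether animals were pooled. Controls were littermates where that was possible. Values are log2 signals after RMA, a normalisation that gives every array nearly the same distribution of signals, so they show amounts relative to other genes of the same array and not RNA per cell. In bulk tissue fewer cells of a type and less RNA per cell cannot be told apart.

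A ribosome needs 1 copy of almost every ribosomal protein, and the mRNAs of these proteins are among the most abundant in growing cells. In mammals their transcripts begin at a C within a run of pyrimidines, the 5′ terminal oligopyrimidine or TOP tract. Translation of such mRNAs depends on the kinase mTOR and on the tract-binding protein Larp1, while Myc raises transcription of ribosomal protein and ribosome assembly genes. Parietal cells of the corpus renew slowly from dividing cells of the isthmus.

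Ribosomal protein mRNA was higher after toxin on every array, and by a modest amount. The median difference of the 69 genes from the control array was 0.36 on the 24 h array, 0.42 on the 36 h array, 0.22 and 0.38 on the 48 h arrays and 0.48 and 0.36 on the 72 h arrays, on the log2 scale. The median over all 22180 genes was 0.00 on each of these arrays. With each array's median subtracted, the members' median at 48 h was 0.19 in place of 0.30, and the median over all genes was -0.12. As linear ratios of group means, the members' median difference was 1.28-fold at 24 h, 1.34-fold at 36 h, 1.24-fold at 48 h and 1.33-fold at 72 h. The control array was the lowest of the 7 in 47 of the 69 members, that is, these lay above it on all 6 toxin arrays, against 20.2% of all genes. In the probe sets of 4 members, Rps16, Rps27, Rpl5 and Rpl7l1, all 6 toxin arrays lay below the control, against 22.6% of all genes. All of these comparisons share the lone control array, so a trait of that array would enter each of them.

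**Figure D1:**
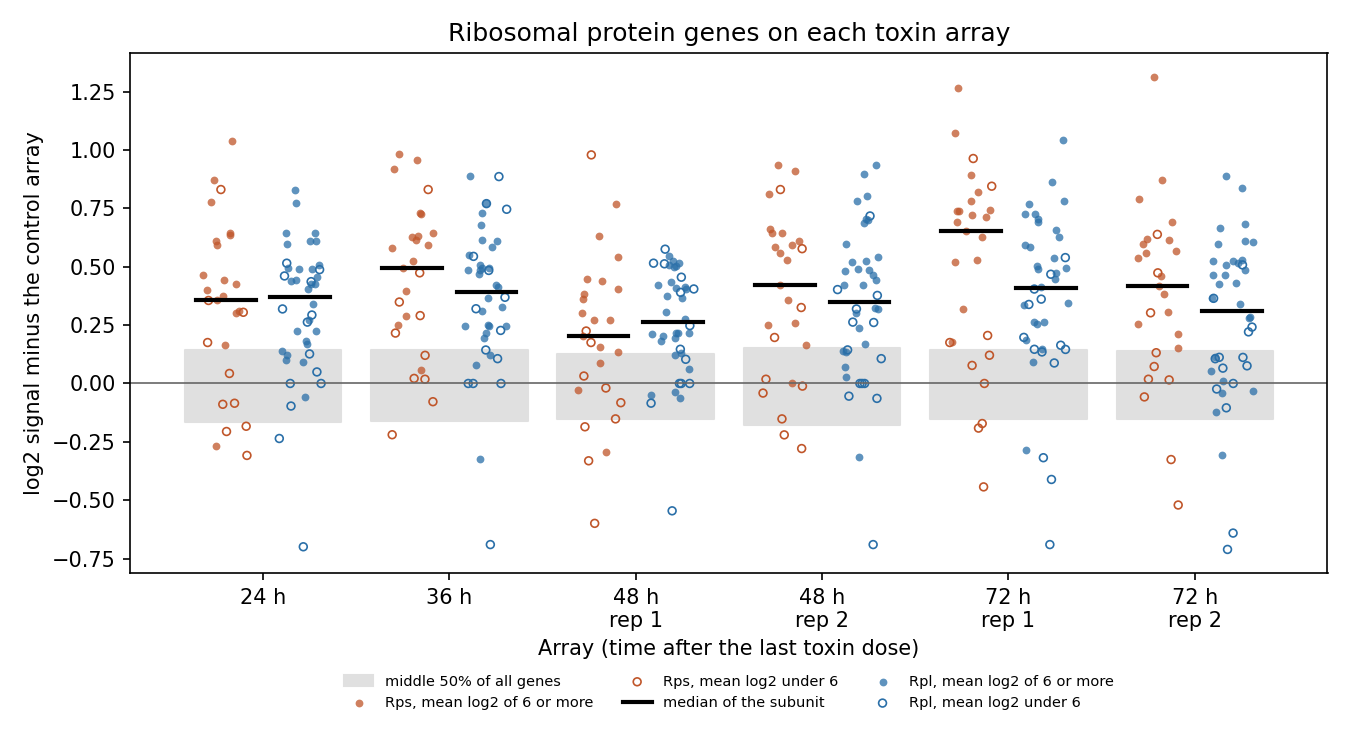
Difference of the log2 signal from the control array (vertical axis) for the 27 Rps genes (orange) and 42 Rpl genes (blue) on each of the 6 toxin arrays (horizontal axis). Filled points are genes with a mean log2 signal of 6 or more, open points those under 6, black bars are the medians of each subunit (for example 0.65 for Rps and 0.41 for Rpl on 72 h replicate 1), and grey bands hold the middle 50% of all genes. Most filled points lie above the band on every array.

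The members' promoters are shown first for what they share in sequence, which the choice of genes did not use. RefSeq windows on GRCm38.p6, from 250 bases before to 50 after the annotated start, matched 54 of the 69 members. A run of at least 8 pyrimidines (only C or T on the transcribed strand), searched from 20 bases before to 40 after the start, was present in 38 of the 54 members (70.4%), against 24.7% of the 27025 genes in the table. It was present in 14 of 23 Rps genes and in 24 of 31 Rpl genes. The windows below each hold 30 bases of the transcribed strand, and capitals mark the longest run of pyrimidines in the searched stretch. The first set is shown for runs that lie at or across the annotated start, in members that were higher on all 6 toxin arrays.
Rps6, chr4:86857349-86857378, minus strand: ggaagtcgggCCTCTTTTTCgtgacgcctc
Rps9, chr7:3704024-3704053, plus strand: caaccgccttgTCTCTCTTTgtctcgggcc
Rps18, chr17:33955648-33955677, minus strand: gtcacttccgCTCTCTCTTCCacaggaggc
Rpl7a, chr2:26910788-26910817, plus strand: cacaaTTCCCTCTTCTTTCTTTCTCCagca
Rpl15, chr14:18270968-18270997, minus strand: gagaaagCCTTCTTCCTTTCCTCTggcggc
Rpl28, chr7:4792952-4792981, plus strand: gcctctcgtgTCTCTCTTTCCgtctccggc
Rpl35, chr2:39005115-39005144, minus strand: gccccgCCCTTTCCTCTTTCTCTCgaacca
Rpl38, chr11:114668568-114668597, plus strand: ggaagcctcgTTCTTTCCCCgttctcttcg
The run was 10 bases long in Rps6 and Rpl38, 9 in Rps9, 11 in Rps18 and Rpl28, 17 in Rpl15, 18 in Rpl35 and 21 in Rpl7a. The second set holds members whose probe sets stand at the ends of the range of differences. The probe sets of Rpl7l1, Rps27 and Rpl5 were lower on all 6 toxin arrays. Rps28 and Rpl41 were among the members with the largest positive differences.
Rpl7l1, chr17:46782660-46782689, minus strand: gcctctctaccccgCCCggtgaggctgcgc
Rps27, chr3:90213632-90213661, minus strand: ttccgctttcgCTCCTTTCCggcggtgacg
Rpl5, chr5:107900497-107900526, plus strand: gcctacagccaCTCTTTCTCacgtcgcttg
Rps28, chr17:33824566-33824595, minus strand: ctgtcccgaggatTCCTgggtaccgcgtgc
Rpl41, chr10:128549156-128549185, minus strand: gacacacgggccggCTCggaagtgacgaca
The longest runs had 3 bases in Rpl7l1 and Rpl41, 4 in Rps28 and 9 in Rps27 and Rpl5. Of these 5, the pair with positive differences had short runs, while below the control Rpl7l1 had a short run and Rpl5 a long one. No direction is given for Rps27, since a probe set shared with Rps27rt, with a mean of 8.23, went the other way. The 38 members with a run had a median difference of 0.33 after 48 h and 0.40 after 72 h, and the 16 without one 0.32 after 48 h and 0.50 after 72 h. A second motif, CCGGAAG on either strand of the whole window, which is the core bound by GABPA and other ETS factors, was present in 23 of 54 members (42.6%), against 9.93% of all genes in the table. The capital runs can include this motif's reverse complement CTTCCGG in part, since its first bases are pyrimidines. These matches describe letters in a window and do not show a start site in the stomach.

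The members' differences from the control were larger in probe sets of stronger signal. Of the 69 members 45 had a mean log2 signal of 6 or more, 17 Rps and 28 Rpl genes, and 38 of these 45 lay above the control on all 6 toxin arrays, against 22.8% of the 8094 genes with such a mean (1 lay below it on all 6, against 32.6%). This mean includes the toxin arrays: 5 of the 45, Rps10, Rpl22, Rpl26, Rpl34 and Rpl37, were under 6 on the control array, and Rpl7l1, at 6.46 there, was left out by its lower toxin arrays. With genes taken by a control signal of 6 or more instead, a split chosen after the data were seen, 34 of 41 members lay above the control on all 6 arrays, against 19.3% of 8156 genes, and 2 lay below it, against 36.5%. The exceptions among the 45 were Rps4x, Rps27l, Rpl4, Rpl5, Rpl6l, Rpl9 and Rpl34. Among the 24 members under 6, 9 lay above the control on all 6 arrays, against 20.2% of all genes, and 3 below it, against 22.6%. These shares were not counted for genes under 6 alone. The median difference of the 24 members was 0.09 after 24 h and 0.22 after 36 h. It was 0.07 and 0.06 on the 48 h arrays and 0.15 and 0.07 on the 72 h arrays. For the 45 members of 6 or more the medians were 0.44 after 24 h, 0.50 after 36 h, 0.30 and 0.49 after 48 h and 0.63 and 0.49 after 72 h. The highest median lay on 72 h replicate 1, and the lowest on 48 h replicate 1. Members under 6 included Rps14, Rps16, Rps20, Rps27, Rps29, Rpl30 and Rplp2. Ribosomal protein genes have many near-identical pseudogenes, and how far copies share signal on a probe set was not tested.

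**Figure D2:**
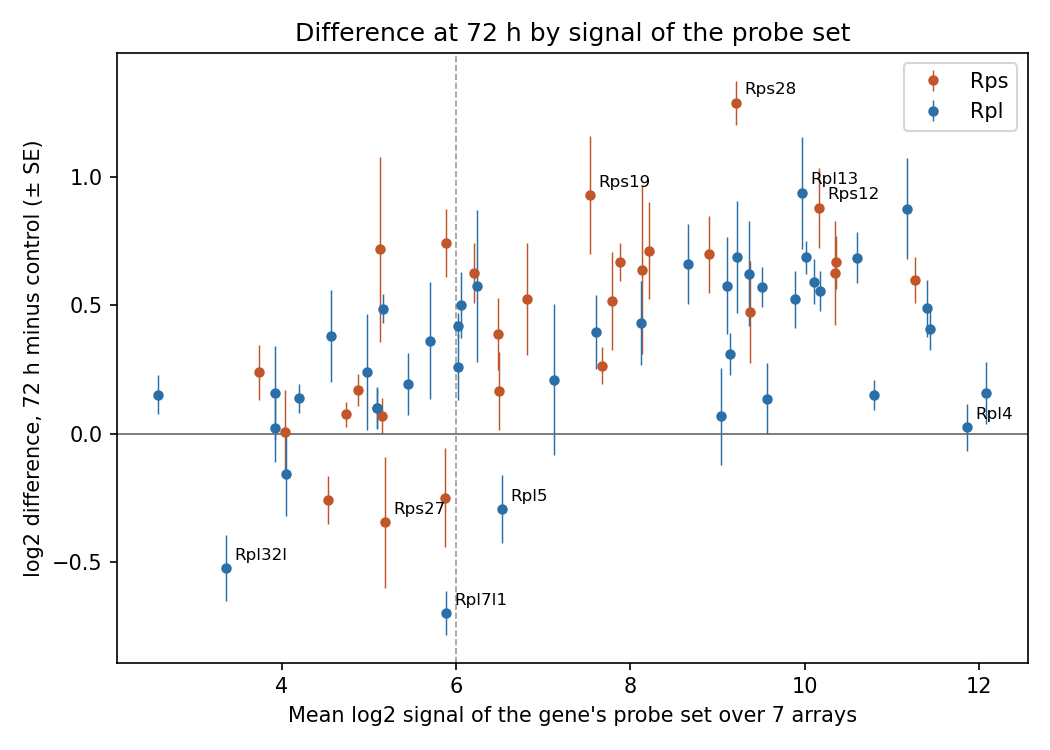
Log2 difference of 72 h from control (vertical axis, mean of 2 arrays minus the control array, bars show the limma standard error) against the mean log2 signal of the gene's probe set over 7 arrays (horizontal axis) for the 27 Rps (orange) and 42 Rpl genes (blue). The dashed line marks a mean of 6: to its right 44 of 45 members have a positive difference, and to its left 18 of 24 do. Both 72 h arrays lie above the control in 41 of the 45, against 36.0% of all genes with a mean of 6 or more. They do so in 15 of the 24, against 34.2% of all genes.

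At 24 h and 36 h there was 1 array each and no test. On the 24 h array 57 of 69 members were higher than on the control array, against 44.8% of all genes, and 17 were higher by at least 0.5, against 5.47%. On the 36 h array 62 were higher, against 44.4%, and 26 were higher by at least 0.5, against 5.44%. Rps genes made up 8 of the 17 after 24 h and 13 of the 26 after 36 h. A difference of at least 1, or 2-fold, was reached by 1 member at 24 h, Rps28, against 1.2% of all genes, and by 0 members at 36 h, against 0.933%. Of members lower by at least 0.5 there was 1 at either time, Rpl7l1, against 7.27% of all genes at 24 h and 7.32% at 36 h.

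At 48 h both arrays lay above the control in 52 of 69 members, against 31.9% of all genes, and both lay below it in 7, against 34.4%. By limma, with a two-sided test and Benjamini-Hochberg adjustment over all 22180 genes, 0 members and 0.0% of all genes were called at an adjusted p under 0.05. The smallest adjusted p of a member was 0.121, shared by Rps28, Rpl19 and Rpl37. At an unadjusted p under 0.05, 26 members were higher, against 8.16% of all genes, and 1 was lower (Rpl7l1), against 11.6%. The 26 were 9 of 27 Rps genes and 17 of 42 Rpl genes. With 2 arrays against 1, a miss of the threshold does not show that a member stayed the same.

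At 72 h both arrays lay above the control in 56 of 69 members, against 34.2% of all genes, and both lay below it in 6, against 33.9%. Again limma called 0 members and 0.0% of all genes, and the smallest adjusted p of a member was 0.146, shared by Rps28 and Rpl19. At an unadjusted p under 0.05, 28 members were higher, against 7.93% of all genes, and 2 were lower (Rpl7l1 and Rpl32l), against 10% of all genes. The 28 were 12 Rps and 16 Rpl genes. A further setting, chosen after the data were seen, tested only the 14286 genes with at least 6 distinct values over the 7 arrays. It called 52 of these genes at 72 h, among them 1 of 58 members, Rps28 with an adjusted p of 0.0457 by limma.

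**Figure D3:**
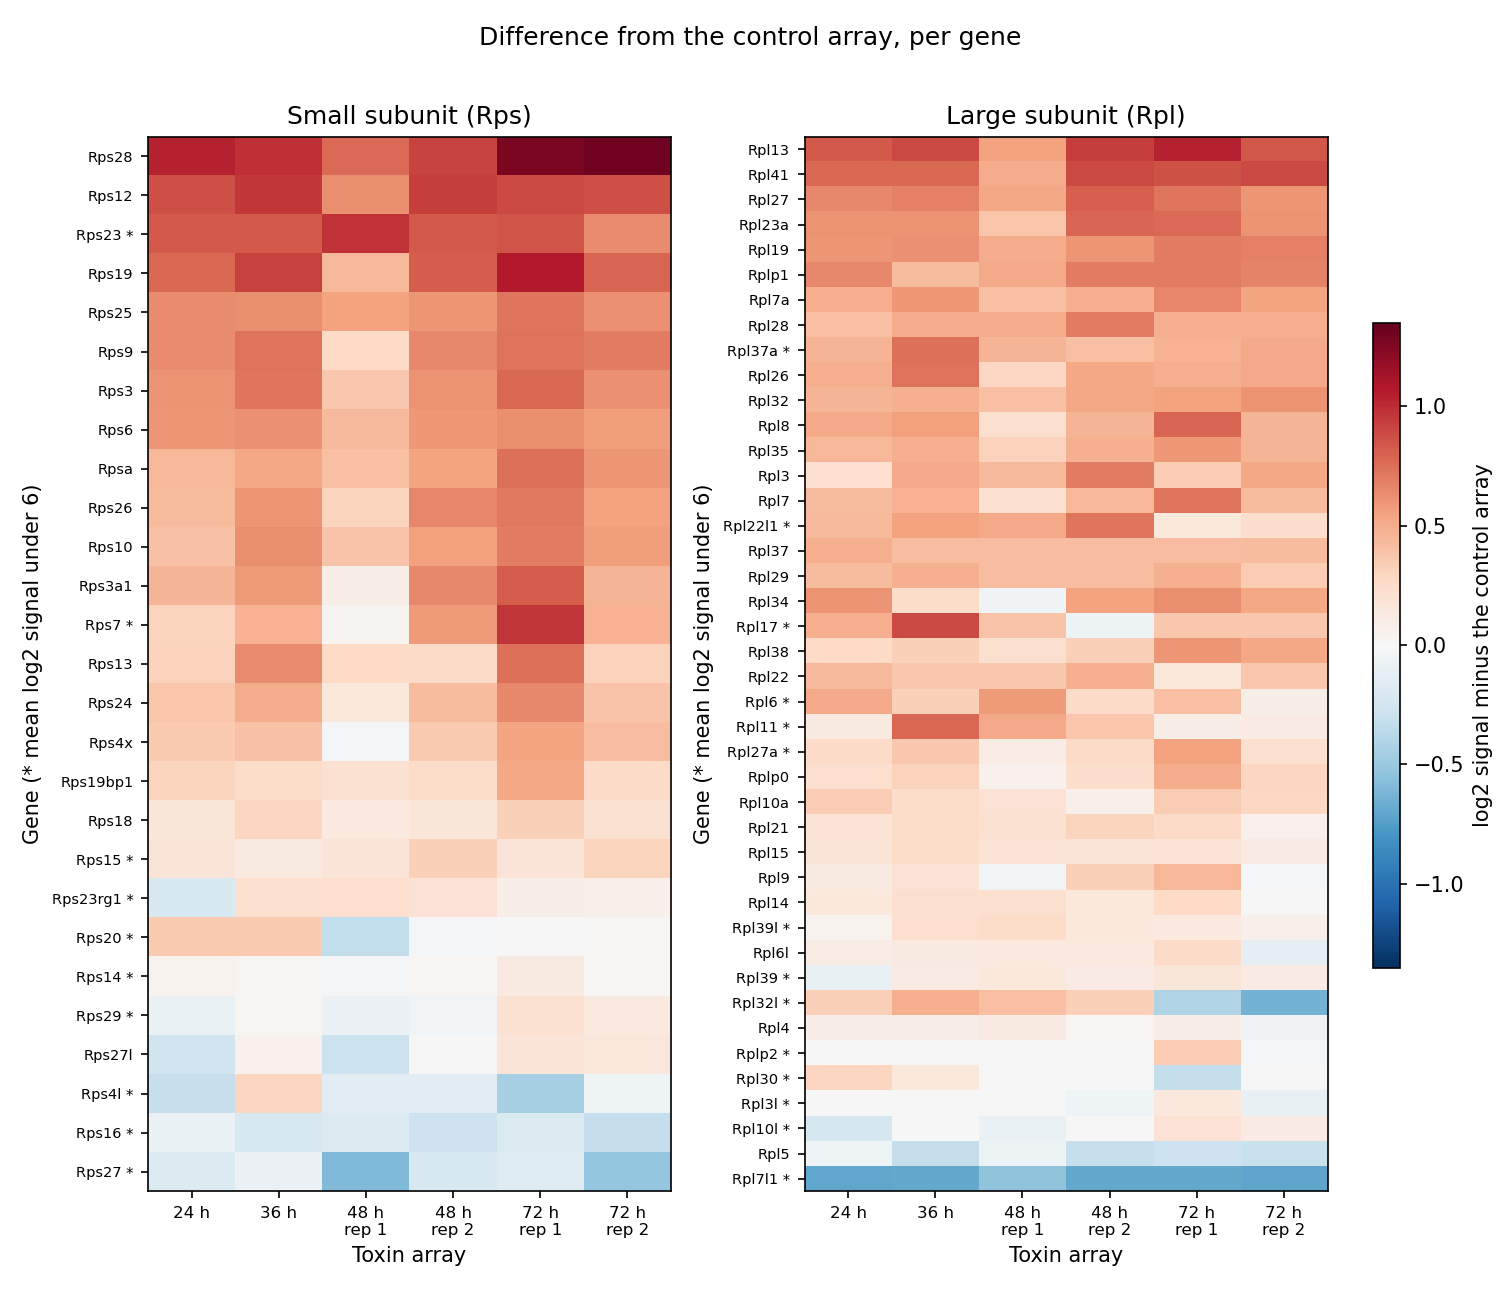
Difference of the log2 signal from the control array for every member, with Rps genes in the left panel, Rpl genes in the right panel and 1 column per toxin array. Red is higher and blue lower than the control on a scale symmetric about 0, genes are ordered by their mean difference, and an asterisk marks a mean log2 signal under 6. Rps28 at the top left and Rpl7l1 at the bottom right are red and blue in all 6 columns.

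The small and large subunit genes were set side by side on each array. The Rps median was 0.36 after 24 h, 0.50 after 36 h, 0.20 and 0.42 on the 48 h arrays and 0.65 and 0.42 on the 72 h arrays. The Rpl median was 0.37 after 24 h, 0.39 after 36 h, 0.26 and 0.35 on the 48 h arrays and 0.41 and 0.31 on the 72 h arrays. Rps minus Rpl came to -0.02 after 24 h, 0.11 after 36 h, -0.06 and 0.07 on the 48 h arrays, and 0.24 and 0.11 on the 72 h arrays. The sign differed between the 48 h replicates, and the 72 h replicates lay 0.24 and 0.11 above 0. The gap between the replicates of 1 time was thus as large as most of the differences between the subunits. At 48 h the mean difference from the control had a median of 0.29 over Rps and 0.33 over Rpl genes, and at 72 h 0.53 over Rps and 0.37 over Rpl genes. With genes under a mean of 6 left out, Rps minus Rpl was 0.01 after 24 h, 0.17 after 36 h, 0.01 and 0.11 after 48 h and 0.22 and 0.10 after 72 h. The genes of a subunit are not replicates of a condition, so no test of this difference was made.

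The 72 h arrays were also set against the 48 h arrays. Both 72 h arrays lay above both 48 h arrays in 21 of 69 members, against 16.7% of all genes, and below both in 6, against 13.0%. Of the 21 members 13 were Rps genes (of 27) and 8 were Rpl genes (of 42). With genes under a mean of 6 left out, these were 11 of 17 Rps and 6 of 28 Rpl genes, against 24.2% of 8094 genes. Limma called 0 members and 0.0% of all genes, with a smallest adjusted p of 0.705 among the members, and at an unadjusted p under 0.05 3 were higher at 72 h (Rps28, Rps29 and Rpl38), against 4.27%, and 4 were lower (Rps23rg1, Rpl11, Rpl22l1 and Rpl32l), against 2.8%. The median of 72 h minus 48 h was 0.16 over Rps genes and 0.05 over Rpl genes, against 0.00 over all genes. Replicates of a time differed by amounts of the same order. At 48 h replicate 2 was the higher in 47 of 69 members, against 9689 of 22180 genes, with a median of 0.11 for replicate 2 minus replicate 1. At 72 h replicate 1 was the higher in 54, against 9634 of 22180 genes, with a median of -0.11. The 72 h replicate 1 array was the highest of all 7 in 37 of 69 members, among them 18 of 27 Rps genes. The share of all genes that were highest on this array was not counted, so these counts have no background.

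Over the 6 toxin arrays, without the control, the slope was positive in 44 of 69 members, against 11398 of 22180 genes, with a median of 0.04 per 24 h against 0.00 over all genes. It was positive in 21 of 27 Rps genes (median 0.06) and in 23 of 42 Rpl genes (median 0.01). Limma called 0 slopes among the members and 0.0% among all genes, and the smallest adjusted p of a member was 0.449, for Rpl32l. At an unadjusted p under 0.05 3 members had a positive slope (Rps29, Rpl10l and Rpl38), against 4.22% of all genes, and 2 a negative one (Rpl30 and Rpl32l), against 4.47%. The members' median was thus already above the control on the 24 h array, the first time sampled, and lay above it on each later array.

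Rpl30, a protein of the large subunit, had the negative slope of a probe set of weak signal, -0.22 ± 0.06 per 24 h. It had 4.03 on the control array, 4.33 after 24 h, 4.18 after 36 h, 4.03 on both 48 h arrays and 3.71 and 4.03 after 72 h. The control value recurred on 3 of the 6 toxin arrays, and the others lay on both sides of it. A probe set shared by Rpl30 and a predicted gene, with a mean of 10.45, lay above the control on all 6 arrays by 0.34 to 0.82.

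Among the small subunit genes Rps28, whose protein lies near the path by which mRNA leaves the ribosome, differed most at 72 h. Its log2 signal was 8.31 on the control array, 9.35 after 24 h, 9.29 after 36 h, 9.08 and 9.22 after 48 h and 9.58 and 9.62 after 72 h. The 6 toxin arrays all lay above the control, and both 72 h arrays lay above all others. The difference from the control was 0.84 ± 0.09 after 48 h (limma standard error, 2 arrays against 1) and 1.29 ± 0.09 after 72 h, or 1.79-fold and 2.45-fold, with limma adjusted p of 0.121 and 0.146. Its other probe set, with a mean of 4.69, differed by 0.35 after 48 h.

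Rps23, a protein of the decoding centre, had a log2 signal of 5.17 on the control array, 6.0 after 24 h, 6.0 after 36 h, 6.15 and 6.0 after 48 h and 6.02 and 5.81 after 72 h. Control and toxin arrays did not overlap, and 48 h replicate 1 was the highest. The difference was 0.90 ± 0.13 after 48 h and 0.74 ± 0.13 after 72 h, with limma adjusted p of 0.131 and 0.167. Rps12, a protein of the head of the small subunit, had 9.42 on the control array, 10.29 after 24 h, 10.38 after 36 h, 10.05 and 10.36 after 48 h and 10.31 and 10.29 after 72 h. All toxin arrays again lay above the control, and 48 h replicate 1 was the lowest of them. Its difference was 0.78 ± 0.16 after 48 h and 0.88 ± 0.16 after 72 h, and the 8 probe sets that name Rps12 alone, which hold 3 distinct sets of values, differed by 0.72 to 0.87 after 48 h.

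Rps19, the protein most often mutated in Diamond-Blackfan anaemia in humans, had a log2 signal of 6.85 on the control array, 7.63 after 24 h, 7.77 after 36 h, 7.30 and 7.66 after 48 h and 7.92 and 7.64 after 72 h. No toxin array reached down to the control, while the replicates of 48 h and of 72 h lay apart. The difference was 0.63 ± 0.23 after 48 h and 0.93 ± 0.23 after 72 h, with limma adjusted p of 0.293 and 0.213. Rps6, the substrate of the S6 kinases, had 10.78 on the control array, 11.37 after 24 h, 11.39 after 36 h, 11.22 and 11.36 after 48 h and 11.40 and 11.34 after 72 h. Its toxin arrays lay close together and all above the control, with a difference of 0.51 ± 0.09 after 48 h and 0.60 ± 0.09 after 72 h. Rpsa, also known as the laminin receptor, differed by 0.47 ± 0.10 after 48 h and 0.67 ± 0.10 after 72 h, with its highest value, 10.63, on 72 h replicate 1 and its lowest, 9.89, on the control array.

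Rps7, a protein of the small subunit that also binds Mdm2, had the largest positive slope of the Rps genes, 0.21 ± 0.14 per 24 h. Its log2 signal was 4.73 on the control array, 5.03 after 24 h, 5.20 after 36 h, 4.76 and 5.30 after 48 h and 5.69 and 5.20 after 72 h. All 6 toxin arrays lay above the control, but the 48 h replicates lay further apart than the 48 h mean lay from the control. The slope had an unadjusted p of 0.186 by limma.

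A few probe sets of small subunit genes lay below the control. Rps27, a zinc finger protein of the small subunit, had a log2 signal of 5.44 on the control array, 5.26 after 24 h, 5.36 after 36 h, 4.84 and 5.22 after 48 h and 5.27 and 4.92 after 72 h. The control was its highest value, and the difference of -0.41 ± 0.26 after 48 h had a limma adjusted p of 0.516. Rps16 had 4.39 to 4.62 on the toxin arrays, against 4.71 on the control array, with a difference of -0.23 ± 0.09 after 48 h. Its toxin arrays all lay below the control, at a signal under the median gene mean of 5.16. Probe sets that share these names with other genes went the other way on all 6 toxin arrays: the one naming Rps16 and a pseudogene, with a mean of 9.76, differed by 0.31 to 0.52, and the one naming Rps27 and Rps27rt, with a mean of 8.23, by 0.00 to 0.20. No direction can therefore be given for Rps16 and Rps27. Rps20 lay on both sides of the control: 3.99 on the control array, 4.34 after 24 h, 4.34 after 36 h, 3.66 and 3.98 after 48 h and 3.99 and 4.0 after 72 h. Its second probe set had the opposite sign at 48 h, with 0.35 beside -0.17, so that no direction can be given for this gene.

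Among the large subunit members, each by the highest-mean probe set that names it alone, Rpl13 had the largest differences at 48 h and 72 h. Its log2 signal was 9.24 on the control array, 10.07 after 24 h, 10.13 after 36 h, 9.79 and 10.18 after 48 h and 10.28 and 10.08 after 72 h. Toxin arrays and control did not overlap, and the difference was 0.74 ± 0.22 after 48 h and 0.94 ± 0.22 after 72 h, with limma adjusted p of 0.232 and 0.202. The other Rpl13 probe set, with a mean of 7.47, differed by 0.14 after 48 h, so the rank depends on the probe set. A probe set shared by Rpl37a and Mir682, with a mean of 9.68, lay further above the control than Rpl13. It differed by 0.89 and 1.91 on the 48 h arrays and 1.75 and 1.93 on the 72 h arrays. The probe set naming Rpl37a alone, with a mean of 5.17, differed by 0.43 after 48 h and 0.49 after 72 h. Rpl41, which encodes one of the shortest proteins of the ribosome, had 10.50 on the control array, 11.28 after 24 h, 11.28 after 36 h, 11.01 and 11.40 after 48 h and 11.37 and 11.39 after 72 h. It differed by 0.70 ± 0.20 after 48 h and 0.88 ± 0.20 after 72 h, and its 5 probe sets ran from -0.09 to 0.95 after 48 h. For Rpl41 the control was again the lowest of the 7 values.

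Rpl27 had a log2 signal of 8.09 on the control array, 8.74 after 24 h, 8.77 after 36 h, 8.62 and 8.89 after 48 h and 8.82 and 8.69 after 72 h, with a difference of 0.66 ± 0.16 after 48 h and also 0.66 ± 0.16 after 72 h. In Rpl19 the replicates lay close together. It had 9.48 on the control array, 10.08 after 24 h, 10.10 after 36 h, 9.99 and 10.08 after 48 h and 10.17 and 10.16 after 72 h, with a difference of 0.55 ± 0.07 after 48 h and 0.69 ± 0.07 after 72 h. All 6 toxin arrays of both genes lay above the control. Rpl38, known in mice for its part in translation of Hox mRNAs, had the largest positive slope of the Rpl genes of mean 6 or more, 0.15 ± 0.05 per 24 h. Its values were 9.85 on the control array, 10.13 after 24 h, 10.18 after 36 h, 10.07 and 10.18 after 48 h and 10.45 and 10.37 after 72 h. Both 72 h arrays lay above all other arrays, and limma gave this slope an unadjusted p of 0.0252 and an adjusted p of 0.522.

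**Figure D4:**
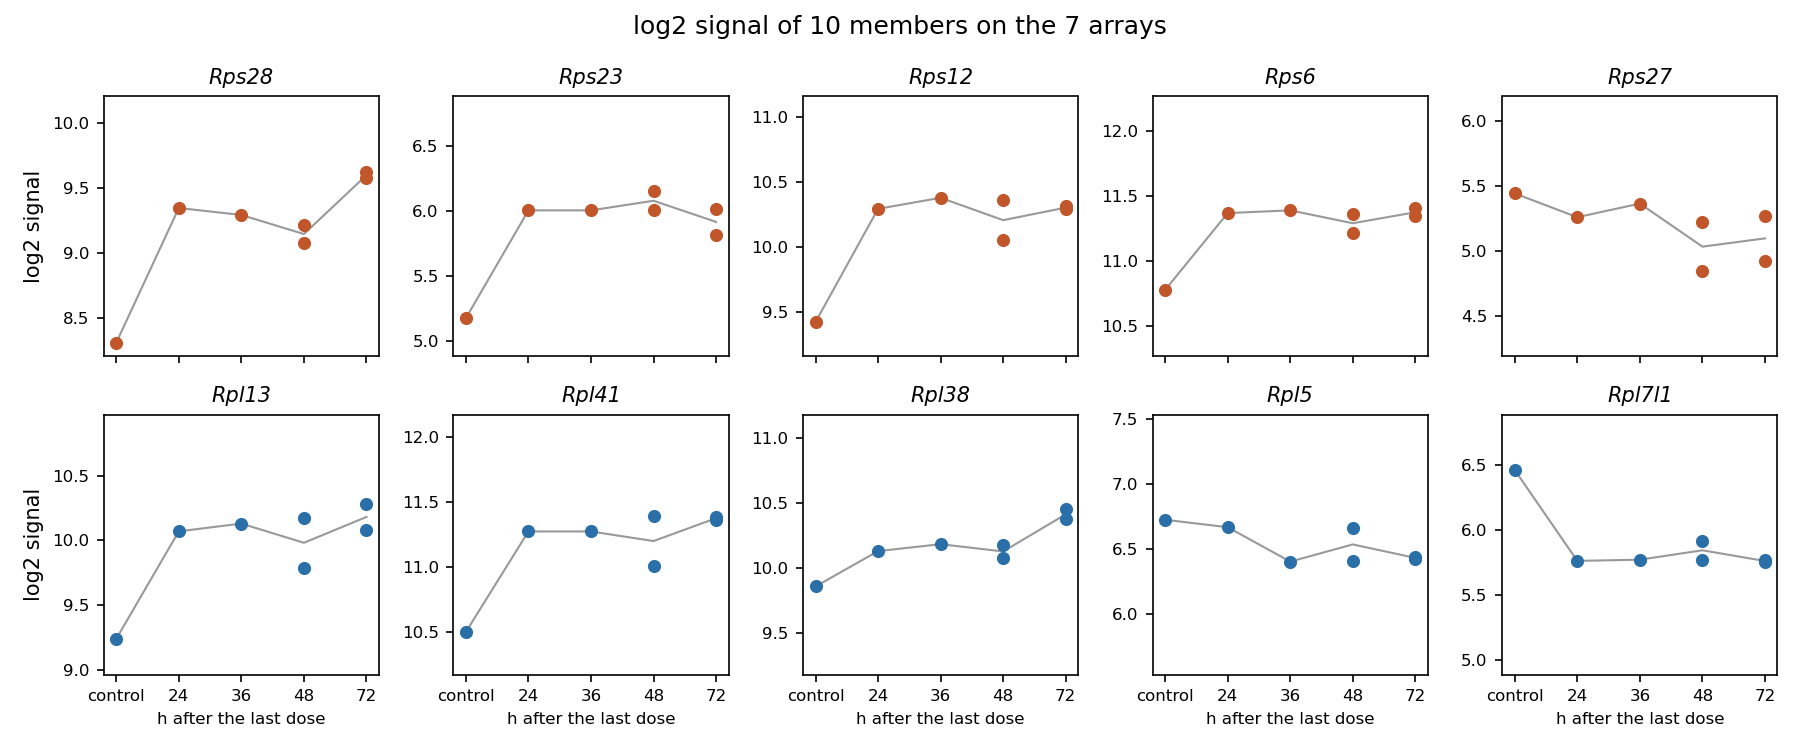
Log2 signal (vertical axis, each panel spanning 2 units) of 10 members on the 7 arrays, against time after the last dose (horizontal axis, with the saline control at the left). Points are single arrays (orange Rps, blue Rpl) and grey lines join the group means. In Rps28, Rps23, Rps12, Rps6, Rpl13, Rpl41 and Rpl38 the control is the lowest point, and in Rps27, Rpl5 and Rpl7l1 the highest.

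The stalk of the large subunit, which recruits translation factors, is built from Rplp0, Rplp1 and Rplp2. Rplp1 had 10.08 on the control array, 10.72 after 24 h, 10.50 after 36 h, 10.59 and 10.77 after 48 h and 10.78 and 10.75 after 72 h, with a difference of 0.60 ± 0.10 after 48 h and 0.69 ± 0.10 after 72 h. Rplp0, the anchor of the stalk, differed by 0.15 ± 0.14 after 48 h and 0.39 ± 0.14 after 72 h, and its toxin arrays, at 7.44 to 7.88, all lay above the 7.38 of the control. Both genes have a weaker probe set that differed otherwise after 48 h. That of Rplp0, with a mean of 5.29, differed by 0.73, and that of Rplp1, with a mean of 5.19, by -0.11. Rplp2 had the same value, 3.88, on the control, 24 h, 36 h and both 48 h arrays and 4.22 and 3.86 after 72 h. With equal values on 5 of the 7 arrays, this probe set gives no direction for Rplp2. A probe set shared by Rplp2 and the snoRNA gene Snora52, with a mean of 7.69, lay above the control on all 6 toxin arrays by 0.47 to 1.03.

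Rpl5 and Rpl11 form a particle with the 5S rRNA that also binds Mdm2, the inhibitor of p53. Rpl5 had a log2 signal of 6.72 on the control array, 6.67 after 24 h, 6.40 after 36 h, 6.66 and 6.41 after 48 h and 6.44 and 6.42 after 72 h. It lay below the control on all 6 toxin arrays, with differences of -0.19 ± 0.13 after 48 h and -0.29 ± 0.13 after 72 h (limma adjusted p of 0.562 and 0.391). Rpl11 had 4.80 on the control array, 4.93 after 24 h, 5.58 after 36 h, 5.32 and 5.18 after 48 h and 4.89 and 4.92 after 72 h. It was above the control on all 6 arrays, most so at 36 h and 48 h, and 72 h minus 48 h was -0.35 ± 0.07 with a limma adjusted p of 0.705. The Rpl11 probe set, with a mean of 5.09, lies under the median gene mean, so the opposite sides of the control rest in part on a weak signal.

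The X-linked members were Rps4x and Rpl39. Rps4x had 9.08 on the control array, 9.44 after 24 h, 9.48 after 36 h, 9.06 and 9.44 after 48 h and 9.61 and 9.50 after 72 h. On 48 h replicate 1 it lay just below the control, and on the other 5 toxin arrays above it, with differences of 0.16 ± 0.20 after 48 h and 0.47 ± 0.20 after 72 h. Rpl39 lay between 4.02 and 4.28 on all arrays, with 4.12 on the control, and its toxin arrays lay on both sides of it.

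The paralogs did not share 1 pattern with their partners. Rpl7l1, a paralog of Rpl7, was the member lowest below the control. Its log2 signal was 6.46 on the control array, 5.76 after 24 h, 5.77 after 36 h, 5.91 and 5.77 after 48 h and 5.77 and 5.75 after 72 h. The control lay above all 6 toxin arrays, which lay close together, and the difference was -0.62 ± 0.09 after 48 h and -0.70 ± 0.09 after 72 h, or 0.652-fold and 0.615-fold, with limma adjusted p of 0.126 and 0.148. Rpl7 itself had 8.93 to 9.44 on the toxin arrays, against 8.72 on the control array, with differences of 0.33 ± 0.19 after 48 h and 0.58 ± 0.19 after 72 h.

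Rpl22l1, the paralog of Rpl22, had 5.08 on the control array, 5.51 after 24 h, 5.62 after 36 h, 5.59 and 5.79 after 48 h and 5.22 and 5.32 after 72 h. It was above the control on all 6 arrays, more so up to 48 h than at 72 h, with differences of 0.62 ± 0.12 after 48 h and 0.19 ± 0.12 after 72 h, and 72 h minus 48 h was -0.42 ± 0.10 (limma adjusted p of 0.705). Rpl22 had 5.71 on the control array, 6.15 after 24 h, 6.08 after 36 h, 6.08 and 6.19 after 48 h and 5.86 and 6.08 after 72 h, with differences of 0.43 ± 0.13 after 48 h and 0.26 ± 0.13 after 72 h. Rps27l, a paralog of Rps27 and a known p53 target, had 6.52 on the control array, 6.25 after 24 h, 6.58 after 36 h, 6.23 and 6.52 after 48 h and 6.70 and 6.67 after 72 h. It lay on both sides of the control before 72 h and above it on both 72 h arrays, with a slope of 0.18 ± 0.08 per 24 h and an unadjusted p of 0.0637 by limma.

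The remaining paralogs had mean signals under 6. Rpl3l, known from heart and skeletal muscle, lay between 3.82 and 4.07, beside differences of 0.57 ± 0.16 after 48 h and 0.43 ± 0.16 after 72 h for Rpl3. Rpl10l, known from the testis, lay between 2.35 and 2.79, and its slope of 0.17 ± 0.04 per 24 h belongs to a probe set with a mean of 2.59. Rpl39l, also known from the testis, differed by 0.20 ± 0.08 after 48 h and 0.10 ± 0.08 after 72 h. Rps4l, which RefSeq lists as a transcribed pseudogene, had 5.54 to 6.28 on the toxin arrays, on both sides of the 5.99 of the control array.

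Of the members that are not ribosomal proteins by name, Rps19bp1 had 6.22 on the control array, 6.52 after 24 h, 6.48 after 36 h, 6.43 and 6.48 after 48 h and 6.75 and 6.48 after 72 h. It lay above the control on all 6 arrays, with differences of 0.23 ± 0.14 after 48 h and 0.39 ± 0.14 after 72 h. Rps23rg1 differed by 0.21 ± 0.05 after 48 h and 0.07 ± 0.05 after 72 h. Fau, whose product is cleaved to the small subunit protein eS30 and whose symbol places it outside the members, had 9.47 on the control array, 9.68 after 24 h, 9.77 after 36 h, 9.59 and 9.67 after 48 h and 9.95 and 9.79 after 72 h. Fau too lay above the control on all 6 arrays, with differences of 0.16 ± 0.10 after 48 h and 0.40 ± 0.10 after 72 h.

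Genes that work with the ribosome were counted in the same fit, from lists chosen with results of these data known. Of 51 measured ribosome assembly genes 30 lay above the control on all 6 toxin arrays and 3 below it, and their median difference was 0.31 after 24 h, 0.33 after 36 h, 0.19 and 0.17 after 48 h and 0.19 and 0.13 after 72 h. At an unadjusted p under 0.05, 17 of the 51 were higher and 0 lower at 48 h, and 17 had a negative slope over the toxin arrays and 0 a positive one. Of all genes, 20.2% lay above the control on all 6 arrays, and at this p 8.16% were higher and 11.6% lower at 48 h, 7.93% higher and 10% lower at 72 h, and 4.47% had a negative slope, the background for the counts of each list that follows. Limma called 0 of the assembly genes. The assembly genes thus lay highest at 24 h and 36 h, whereas the members' median at 72 h, 0.48 and 0.36, was about that of 24 h and 36 h. The difference between these patterns was not tested.

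Ncl (nucleolin) had a log2 signal of 8.17 on the control array, 8.99 after 24 h, 9.08 after 36 h, 8.88 and 8.97 after 48 h and 8.53 and 8.54 after 72 h, and its slope was -0.27 ± 0.06 per 24 h (limma adjusted p of 0.440). Npm1 (nucleophosmin) differed by 0.84 ± 0.21 after 48 h and 0.65 ± 0.21 after 72 h, and Nhp2, a protein of the snoRNPs that modify rRNA, by 0.69 ± 0.07 and 0.70 ± 0.07. Ncl lay closer to the control at 72 h than at 48 h, while the Nhp2 difference was about equal at both times. The smallest differences at 48 h belonged to Nop10 with -0.30 ± 0.19, Pno1 and Ltv1.

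Of 13 elongation and termination genes 7 lay above the control on all 6 arrays and 1 below, and the median was 0.22 after 24 h, 0.20 after 36 h, 0.10 and 0.13 after 48 h and 0.16 and 0.05 after 72 h. Eef1g, Eef1b2 and Eef2, whose mRNAs also carry TOP tracts in mammals, had the largest differences, with 0.58 ± 0.11, 0.24 ± 0.08 and 0.23 ± 0.08 after 48 h. Of 31 initiation genes 11 lay above and 4 below on all 6 arrays, with array medians between 0.03 and 0.09. Eif6, which keeps free large subunits from joining small ones, differed by 0.61 ± 0.09 after 48 h, Eif3j1 by 0.65 ± 0.12 and Pabpc1 by 0.42 ± 0.07, whereas Eif4a2 was at -0.45 ± 0.12. Limma called 0 genes of either list at 48 h and 72 h. At an unadjusted p under 0.05, 1 elongation gene was higher and 0 lower at 48 h, and 4 were higher and 0 lower at 72 h, while 5 initiation genes were higher and 3 lower at 48 h, and 6 higher and 2 lower at 72 h.

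Of 11 genes of RNA polymerase I and its factors 4 lay above the control on all 6 arrays and 0 below. Taf1d had the largest difference of them, 1.47 ± 0.23 after 48 h and 1.73 ± 0.23 after 72 h, and this gene also hosts several snoRNAs. Of 14 regulators 5 lay above and 4 below on all 6 arrays. Myc had 7.05 on the control array, 8.02 after 24 h, 7.92 after 36 h, 7.79 and 7.91 after 48 h and 7.61 and 7.47 after 72 h, and Larp1 differed by 0.58 ± 0.05 after 48 h and 0.61 ± 0.05 after 72 h. Mtor lay at -0.49 ± 0.15 after 48 h, Rheb, its activator, at -0.48 ± 0.07, and Tsc2, its inhibitor, at -0.58 ± 0.12. Limma called 0 genes of these lists at 48 h and 72 h. At an unadjusted p under 0.05, 3 polymerase I genes were higher and 0 lower at either time, and 4 regulators were higher and 4 lower at 48 h, and 4 higher and 1 lower at 72 h.

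**Figure D5:**
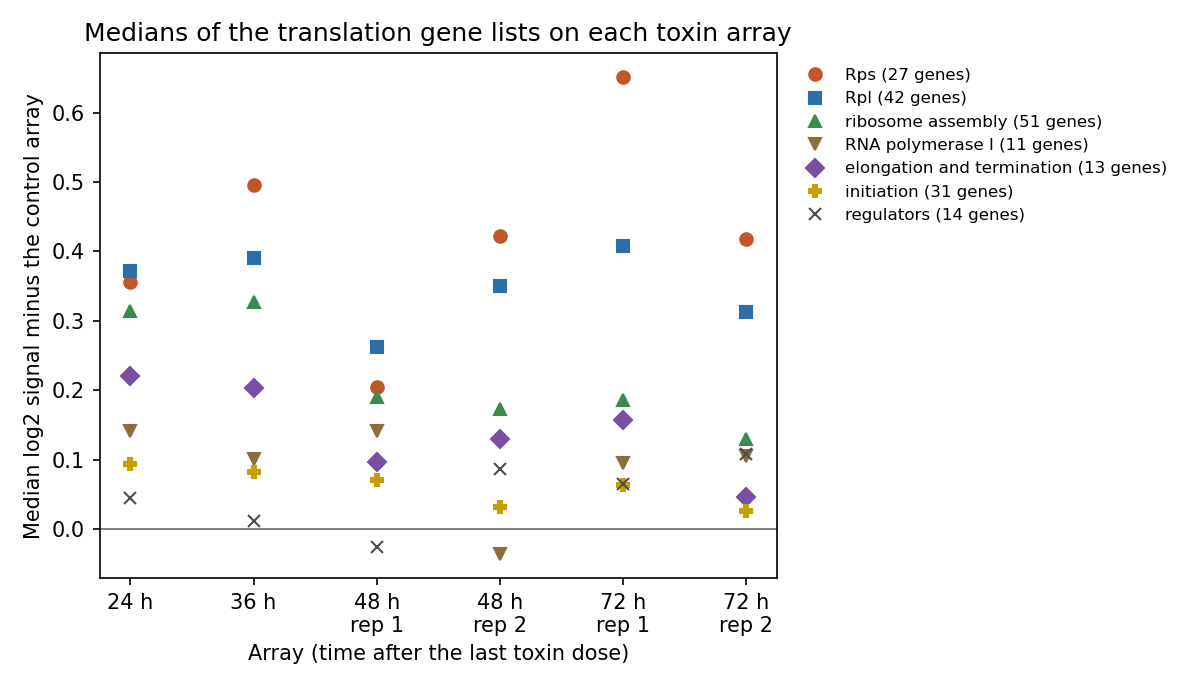
Median difference of the log2 signal from the control array (vertical axis) on each toxin array (horizontal axis) for the Rps and Rpl genes and for 5 lists of genes that work with the ribosome. Points are medians over the genes of a list, with their number in the legend. The Rps and Rpl points lie above the initiation list on every array, and the ribosome assembly list is highest at 24 h and 36 h (0.31 and 0.33).

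Other gene groups also differed between the arrays. The mean log2 signal of 11 cell division markers was 6.31 on the control array, 7.79 after 24 h, 7.39 after 36 h, 7.43 and 7.29 after 48 h and 7.10 and 6.80 after 72 h, so that these were highest at 24 h, with 11 of 11 above the control on all 6 arrays (Mki67 was at 9.64 on the 24 h array, against 7.69 on the control array). The mean of 10 parietal cell markers, in the same array order, was 9.92, 8.36, 8.97, 8.52 and 8.97, 9.17 and 9.39, with 8 of 10 below the control on all 6 arrays, and Atp4b, the gene whose promoter drives the receptor, was at 10.68 on the 24 h array, against 12.94 on the control array. The mean of 5 endothelial markers was 6.76 to 7.10 on the toxin arrays, against 8.05 on the control array, with 5 of 5 lower on all 6. The mean of 6 forestomach markers, in the same array order, was 5.97, 5.76, 6.16, 5.17 and 6.21, 6.58 and 5.09, and that of 6 endocrine markers was 8.83, 9.15, 8.71, 8.83 and 9.14, 9.54 and 9.20. In both, as in the members' medians, replicate 2 was the higher at 48 h and replicate 1 at 72 h. The mean of 5 chief cell markers was 7.78 to 7.99 on the toxin arrays, against 8.36 on the control array, and that of 5 neck cell markers was 8.38 to 9.50, against 8.56. The mean of 7 T and B cell markers lay between 4.24 and 4.80 and that of 8 myeloid markers between 5.02 and 5.39. The control and 24 h arrays also differed in a sex-linked pattern from the other 5: Xist was at 9.17 on the 24 h array, 2.70 to 3.27 on the later arrays and 8.13 on the control array, while the Y-linked Eif2s3y was at 3.40 on the 24 h array, 7.79 to 8.39 on the later arrays and 3.81 on the control array. Beyond 24 h, toxin and this pattern cannot be told apart. At 24 h the comparison is of 1 array with 1. The part of cell division, cell makeup (forestomach and endocrine tissue and T and B cells included) and sex in the members' differences was not tested.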

How the data were processed

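Labelled cDNA was made from total RNA with a WT Plus kit (Affymetrix), per the labels' protocols. The authors deposited log2 signals of 41345 probe sets for the 7 arrays. Per the submitters' processing notes, RMA and Partek were used, with versions not given in the sources used here. Values were used as deposited. All columns were used (0 left out). Precision is limited by the number of arrays.

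Under the platform annotation 23521 probe sets carried 1 gene, and the one of highest mean per gene gave 22180 genes. The test was limma 3.58.1 (R 4.3.3), two-sided, on group means over 7 arrays (2 residual and 1.15 prior degrees of freedom) and, for the slope per 24 h, on the 6 toxin arrays (4 residual, 1.83 prior). A Benjamini-Hochberg adjusted p under 0.05 was a call. The lone control is assumed to vary like the 48 h and 72 h pairs, and p-values measure only the spread between these arrays. Medians over members carry no p. Differences within the 48 h and 72 h pairs correlated at -0.13 across genes, so replicate numbers were not used to pair arrays. The test was checked on simulated data, with a spread that was assumed and not taken from these arrays. There it missed most changes of the members' size.

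The members and all gene lists were chosen with earlier results of these data known. Members were named by rule: the 4 per subunit with the largest and the smallest difference at 48 h, the 3 largest and smallest slopes, the stalk and 5S particle proteins, Rpsa, Rps6, X-linked members, paralogs with partners, members that are not ribosomal proteins and Fau, with, in the other lists, genes among the 3 largest and smallest differences at 48 h. Remaining members stand in counts and the heat map. Alternatives were other scalings, a filter at a mean log2 of 6, the mean of a gene's probe sets, canonical names alone and numbered pseudogene names kept. Others were another prior, a replicate block and leaving out each 48 h or 72 h array. For the slope, the 24 h and the 36 h array were also left out in turn. Promoter windows were taken from RefSeq, GRCm38.p6, and 15 members had none. Gene names are those of the platform annotation, and the build behind them was not used.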

Additional observations from a re-analysis of the deposited data

Results flagged for a closer look

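In 2 of the 69 members both 48 h arrays lay on one side of the control and both 72 h arrays on the other, as in 898 of 22180 genes (4.05%), and the difference itself was not called. By group means alone this held for 7 members and for 5708 genes (25.7%). Rpl32l had 3.30 on the control array, 3.62 after 24 h, 3.78 after 36 h, 3.70 and 3.62 after 48 h and 2.89 and 2.66 after 72 h, so that 72 h minus 48 h was -0.888 (limma adjusted p of 0.705). Rps29 had 4.86 on the control array, 4.78 and 4.82 after 48 h and 5.06 and 4.99 after 72 h, and 72 h minus 48 h was 0.2304 with the same adjusted p. Both have a mean log2 signal under 6.

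Probe sets that name a ribosomal protein together with another gene entered no comparison. On these 57 probe sets the median difference from the control array was 0.3312 after 24 h and 0.4155 after 36 h. It was 0.132 and 0.2797 on the 48 h arrays and 0.4278 and 0.2673 on the 72 h arrays. Of the 57, 34 lay above the control on all 6 toxin arrays, against 20.2% of all genes, and 3 below it, against 22.6%. Signal on such a probe set cannot be assigned to 1 gene.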

How the results depend on the processing

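The count of called members stayed 0 in all 4 comparisons under both scalings, the filter at a mean of 6, the mean of a gene's probe sets, canonical names alone, pseudogene names kept, the other prior and leaving out each 48 h or 72 h array (0 to 0), as did the slope without the 24 h or the 36 h array. The control, which has 1 array, was not left out. Over all 22180 genes, 167 were called at 48 h and 30 at 72 h with each array's median subtracted. Under the other scaling, quantile normalisation, 7 genes were called at 48 h and 5 at 72 h. The exception among the members was 1 of 58 at 72 h with genes of at least 6 distinct values, where 52 of 14286 genes were called. At 48 h that setting called 0 members and 143 genes. In 72 h against 48 h, the replicate block gave 0 called members, with 4 at an unadjusted p under 0.05. The crossed block, added after the data were seen, also gave 0, with 12.

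Subtracting each array's median shifted all genes by -0.12 at 48 h and lowered the Rps median at 48 h to 0.17 and the Rpl median to 0.30 at 24 h, 0.29 at 36 h and 0.21 at 48 h. Members above the control on all 6 arrays were then 41 of 69, against 12.2% of all genes. Rpl4 (48 h and 72 h), Rps20 and Rpl3l (72 h) changed sign under this scaling. Leaving out genes of a mean under 6 gave an Rps median of 0.47 at 48 h, Rpl medians of 0.40 at 48 h and 0.49 at 72 h, and Rps minus Rpl of 0.0694 at 48 h. The Rpl median at 48 h was 0.26 with the mean of a gene's probe sets and 0.27 with pseudogene names kept. Without 1 array of the 48 h pair, the Rps median was 0.20 to 0.42, the Rpl median 0.26 to 0.35 and Rps minus Rpl -0.0583 to 0.0719. Without 1 array of the 72 h pair, the Rps median was 0.42 to 0.65, the Rpl median 0.31 to 0.41 and Rps minus Rpl 0.11 to 0.24. Apart from the effect of fewer genes, samples or weak probe sets that an alternative itself sets, the cause was not tested. Of 25 members with several probe sets 8 had one of opposite sign at 48 h, and 21 had means over 2 apart.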

Other observations

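For the 12 canonical ribosomal proteins that stood only on probe sets shared with another name, the probe set of highest mean was taken. Of these 12, 6 lay above the control on all 6 toxin arrays, against 20.2% of all genes, and 0 below it, against 22.6%. Their median difference was 0.33 after 24 h, 0.39 after 36 h, 0.13 and 0.28 on the 48 h arrays and 0.45 and 0.33 on the 72 h arrays. Rps2, a protein near the mRNA entry channel, stood with 2 predicted gene names and varied most: 1.00 after 24 h, 0.71 after 36 h, -0.35 and 0.24 on the 48 h arrays and 1.24 and 1.09 on the 72 h arrays. Rpl13a, on a probe set shared with a snoRNA, lay on both sides of the control, from -0.16 to 0.19. Of 15 probe sets named as processed pseudogenes of ribosomal proteins, 4 lay above the control on all 6 arrays, against 20.2% of all genes. The median difference of the 15 was 0.26 after 24 h and 0.04 after 36 h. It was 0.03 and 0.13 on the 48 h arrays and 0.24 and 0.06 on the 72 h arrays.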
